A study of Mus musculus with 6 samples.

Results

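The genes described here encode the proteins of the cytosolic ribosome, measured in primary mouse hepatocytes with and without the succinate receptor gene *Sucnr1*. A gene was taken as a member if its mouse symbol began with Rpl or Rps followed by a digit, or was *Rpsa*, *Rplp0*, *Rplp1*, *Rplp2* or *Fau*, and pseudogenes marked -ps and the *Rps6k* kinase genes were left out. This gave 93 of the 25184 genes in the count table. Of these, 78 are the canonical ribosomal proteins, 32 of the small (40S) subunit and 46 of the large (60S) subunit. The other 15 are paralogs, retrogenes and *Rps19bp1*, which encodes a binding partner of RPS19 and not a ribosomal protein. In the GENCODE M21 annotation 7 of these 15 are called pseudogenes, *Rpl32l*, *Rpl37rt*, *Rpl6l*, *Rps12l1*, *Rps3a2*, *Rps3a3* and *Rps4l*. The rule goes by symbol and leaves out ribosomal protein genes of other names, such as *Rack1*, the scaffold protein on the head of the small subunit, so the subunits are not complete.

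Hepatocytes came from 3 *Sucnr1* fl/fl mice, which carry the floxed gene without Cre, and from 3 Hep-*Sucnr1* KO mice, which carry the same floxed alleles with Cre driven by the albumin promoter, so that the gene is removed in hepatocytes. All mice were fed chow, and the cells were isolated by enzymatic digestion and a density gradient and kept in culture overnight before poly(A) RNA was sequenced. RNA was extracted on 2 days, with 1 library of each genotype on day 1 and 2 of each on day 2, and the age of the mice behind these cultures is not given in the sources used here. *Sucnr1* fl/fl replicates 1 and 2 carry library indexes of one series and the other 4 libraries of another, so that index series and genotype are partly confounded.

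The total count per library lay between 30504248 and 38770694. Levels are given in CPM, counts scaled to a common library total. The targeted gene *Sucnr1* averaged 4.55 ± 1.87 CPM over the controls, and 1.21 ± 1.30 CPM over the knockout libraries (SD, n = 3). Hepatocyte identity genes were abundant in every library and had a median log2 fold change of 0.01 between genotypes, with 7 of 13 higher in KO. All 10 Kupffer cell markers had a lower fitted level in KO with extraction day in the fit, with a median of -0.40. The genotype groups overlapped in each of them. Their summed level was 42.1, 37.9 and 139 CPM in fl/fl replicates 1, 2 and 3. It was 8.33, 121 and 85.3 CPM in KO replicates 3, 4 and 5. Endothelial markers were lower in 9 of 10 with sums of 66.0 to 115 CPM in fl/fl and 42.5 to 76.3 CPM in KO, and stellate cell markers in 5 of 7 with sums of 10.7 to 37.3 and 9.01 to 15.8 CPM. Of the cholangiocyte markers 4 of 7 were lower (358 to 520 and 433 to 656 CPM), of the erythroid markers 4 of 5 (73.6 to 115 and 86.9 to 115 CPM), and the neutrophil markers were higher in 4 of 4 (0.962 to 5.87 and 1.11 to 6.67 CPM). *Krt7*, *Slc4a1*, *Ly6g*, *Mpo*, *Retnlg*, *Camp*, *Des* and *Col1a1* had at most 10 counts in each library. Between day 2 and day 1 the median log2 differences were 2.07 for Kupffer cell, 2.06 for neutrophil and 1.43 for erythroid markers. For endothelial, stellate cell and cholangiocyte markers they were -0.19, -0.71 and 0.09, and for hepatocyte identity genes -0.01. In bulk samples, fewer cells of a type and less RNA per cell cannot be told apart. The part of these other cell types in the results on ribosomal proteins was not tested.

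Each ribosome holds one copy of nearly every ribosomal protein, so the cell makes them in matched amounts, together with the ribosomal RNA that forms the core of both subunits. Their mRNAs are short, abundant and stable, and most begin with a C followed by a run of pyrimidines, the 5′ terminal oligopyrimidine (TOP) motif, through which the kinase complex mTORC1 and the RNA-binding protein LARP1 control when they are translated. In the liver, the output of ribosomes follows feeding and amino acid supply, and control of these mRNAs acts mostly on translation, which a count of mRNA does not measure.

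The start of these mRNAs is shown first because the TOP motif is the sequence feature the family is known for, shared with some other mRNAs of the translation machinery. The sequences below are from the RefSeq promoter table (GRCm38.p6). Each runs 5′ to 3′ from 10 bases before the annotated transcription start, and capitals mark a C followed by at least 4 C or T. In the first 8 the motif was matched from the annotated start, so the capitals begin there even where pyrimidines also stand just before it, and in the last 2 it was matched within 10 bases of the start.
Fau (chr19:6057937-6057966, plus strand): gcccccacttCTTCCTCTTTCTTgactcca
Rps6 (chr4:86857348-86857377, minus strand): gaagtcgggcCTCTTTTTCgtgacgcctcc
Rps18 (chr17:33955646-33955675, minus strand): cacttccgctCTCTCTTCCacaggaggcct
Rps10 (chr17:27635225-27635254, minus strand): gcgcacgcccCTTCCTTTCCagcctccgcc
Rps27 (chr3:90213629-90213658, minus strand): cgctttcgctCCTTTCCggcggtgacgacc
Rps27rt (chr9:114982720-114982749, minus strand): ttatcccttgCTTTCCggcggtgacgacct
Rpl15 (chr14:18270967-18270996, minus strand): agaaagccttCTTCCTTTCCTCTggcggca
Rpl35 (chr2:39005112-39005141, minus strand): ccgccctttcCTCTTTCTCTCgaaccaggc
Rpl27a (chr7:109519185-109519214, plus strand): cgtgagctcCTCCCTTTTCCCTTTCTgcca
Rpl13a (chr7:45128726-45128755, minus strand): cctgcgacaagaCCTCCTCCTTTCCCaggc

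Of the 78 canonical genes 58 had an entry in the promoter table, and 14 of these (24.1%) began with the motif at the annotated start, against 2.95% of 10497 tested genes and 3.01% of all 27025 genes in the table. With the start allowed to lie within 10 bases on either side, the motif was found in 60.3% of the canonical genes and in 37.3% of the tested genes. The motif at the annotated start was found in 3 of 14 genes of the list of other TOP mRNAs (21.4%), in 2 of 23 initiation factors, and in 0 of 7 elongation factors, 0 of 41 ribosome assembly factors and 0 of 68 mitochondrial ribosomal proteins. A match describes letters at an annotated start, which can lie some bases from the start used in these cells, and only the given strand was searched.

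The canonical genes lie apart in the genome, on 20 chromosomes, with 4 of them on chromosome X. In these hepatocytes the 93 genes together held 1.11% to 1.31% of all counts. Between genes, levels were compared as CPM per kb of the principal mRNA of the GENCODE M21 annotation (the isoform the annotation ranks as principal). On this scale the canonical genes had a median of 194.5 CPM per kb with quartiles of 141 and 239.

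**Figure D1:**
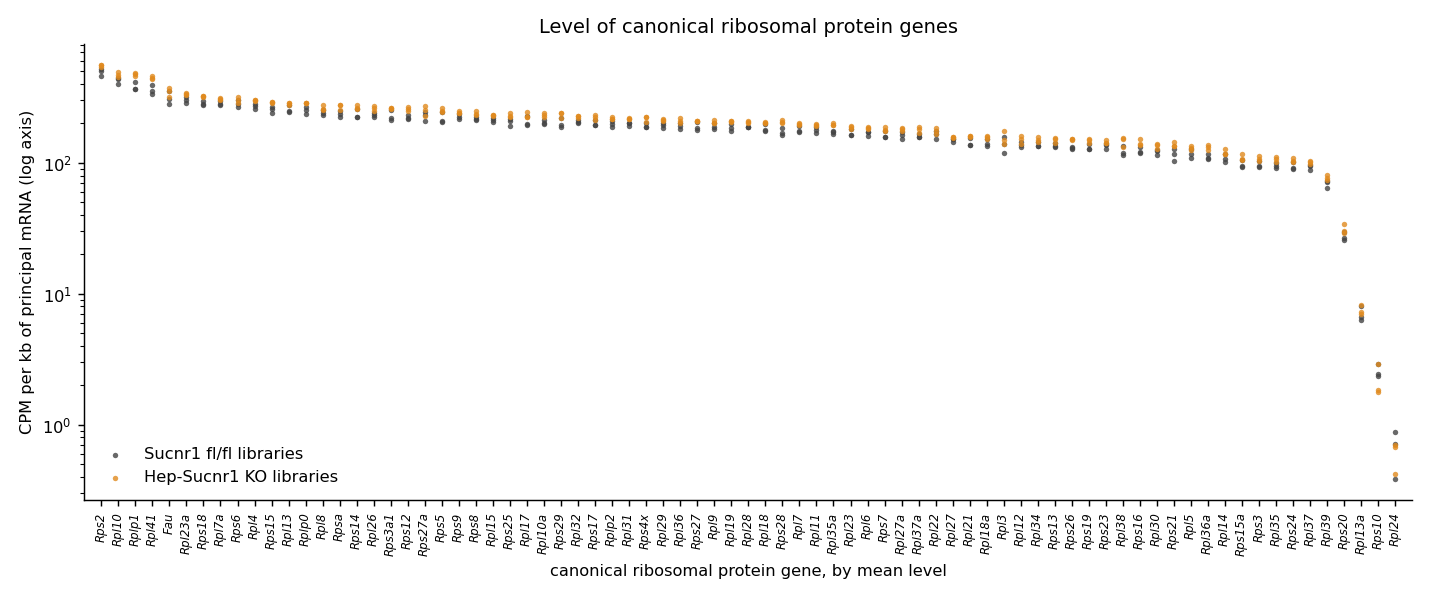
Level of 77 of the 78 canonical ribosomal protein genes in CPM per kb of principal mRNA (log axis), ordered by mean level, with 1 point for each of 3 Sucnr1 fl/fl (grey) and 3 Hep-Sucnr1 KO (orange) libraries. Most genes lie close together near the median of 194.5, and Rps20, Rpl13a, Rps10 and Rpl24 fall far below the rest. The place of Rps20 depends on its annotated mRNA length of 3706 bases.

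*Rps2*, a small subunit protein at the entry of the mRNA channel, was the highest at 524.4 CPM per kb of mRNA, followed by *Rpl10* (448), which joins the large subunit last, *Rplp1* (428), an acidic protein of the stalk that recruits elongation factors, *Rpl41* (405), the smallest ribosomal protein, and *Fau* (332), whose product is cleaved into a ubiquitin-like part and RPS30. On this scale the libraries ran from 462 to 562 for *Rps2*, 399 to 494 for *Rpl10*, 369 to 486 for *Rplp1*, 338 to 464 for *Rpl41* and 283 to 373 for *Fau*, so that the ranges of neighbours overlapped. The order depended on the length used. By merged exon length the highest were *Rplp1* (428), *Rps2* (286), *Rps3a1* (245), *Rplp0* (220) and *Rpl4* (219), and by coding length *Rpl41* (2357), *Rplp1* (625), *Rps2* (595), *Rpl10* (558) and *Rps29* (504).

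The genes at the bottom of the order share exons with another annotated gene on the same strand. *Rpl24* (ENSMUSG00000098274, chr16:55966275-55971435) had 9 to 18 counts per library, and 71.5% of its mRNA is also annotated to *Gm28037*. *Rps10* (ENSMUSG00000052146, chr17:27630418-27636669) had 29 to 48 counts, with 91.6% shared with *RPS10-NUDT3*. *Rpl13a* had 233 to 272 counts with 59.3% shared with *Gm45713*, and the paralog *Rpl36al* had 15 to 21 counts with 63.1% shared with *Gm49383*. These partner genes held 0, 0, 0 and 1 counts in the table. How read pairs that match more than 1 gene were counted is not given in the sources used here, and the values of these 4 genes are uncertain as levels. *Rps20* stood at 29.1 CPM per kb with a principal mRNA annotated at 3706 bases, the longest of the family. By merged exon length or by coding length it was not among the 5 lowest tested members, so its low place depends on the length used. Without *Rpl24*, *Rps10* and *Rpl13a* the other 75 canonical genes spanned an 18.0-fold range per kb of mRNA, with *Rps20* at its lower end. Their lowest mean without division by length was 44.9 CPM.

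Most of the family has near-identical copies elsewhere in the genome, and 72 of the 78 canonical mRNAs matched at least 1 other annotated gene at 97% identity or more over 100 bases, with a median of 4 such genes. *Rpl21* had the most, 34. The counts on these copies came to a median of 5.69% of the gene's own counts, but to 56.1% for *Rps6* and 118% for *Rpl15*. For 2 of the genes with shared exons the copies held more than the gene itself, 1432 counts against 84 for *Rpl24* (1705%) and 2167 against 236 for *Rps10* (918%), and for the paralog *Rpl36al* they held 4026 against 105. How many copies a gene had went with neither its level nor its genotype difference in any clear way: the 6 genes with no copy had medians of 226 CPM per kb and 0.16 (log2 fold change), and the 29 with 5 or more had 198 CPM per kb and 0.15.

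The paralog pairs differed widely in level. *Rpl3*, which shapes the peptidyl transferase centre, had 162 to 235 CPM, while its muscle paralog *Rpl3l*, 74.1% identical in coding sequence, had at most 2 counts in any library. *Rpl39*, at the nascent peptide exit tunnel, had 39.4 to 49.2 CPM and *Rpl39l*, known from the testis, again had at most 2 counts (85.0% identity). *Rpl32l*, an annotated pseudogene, had at most 6 counts. These were the 3 members that did not pass the filter on low counts. *Rpl10l* is not in the table. Per kb of mRNA, *Rpl7* exceeded *Rpl7l1* 5.37-fold (54.8% identity), *Rpl22* exceeded *Rpl22l1* 4.55-fold (70.9%), and *Rpl36a* exceeded *Rpl36al* 121-fold (87.7%), the last with the shared exons named above. *Rps27* and *Rps27l*, 76.2% identical, were closest, with *Rps27* at 1.56-fold the level of *Rps27l*. The retrogene *Rps27rt* has the same coding sequence as *Rps27* over all 252 bases, and *Rps27* stood 37.8-fold above it. *Rps4x*, the X-linked small subunit gene, had 182 to 220 CPM, and the intronless *Rps4l* had 7.65 to 15.3 CPM.

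The comparison of the genotypes asks whether the loss of *Sucnr1* in hepatocytes goes with a change in gene expression. Nearly all ribosomal protein genes had a slightly higher fitted level in Hep-*Sucnr1* KO than in *Sucnr1* fl/fl, 87 of the 90 that were tested, with a median log2 fold change of 0.15 or 11.1%. Over all 15105 genes tested, 50.5% were higher in KO and the median was 0.00. No member passed the test: every adjusted p was 0.998 by edgeR's quasi-likelihood test with extraction day in the fit and Benjamini-Hochberg adjustment over all genes. By this test 0 of all 15105 genes (0.0%) had an adjusted p below 0.05. DESeq2 called 7 genes (0.0463%), none of them a member, and 2 members had an unadjusted p below 0.05 by DESeq2, where 2.88% of all genes did. The median standard error of a member was 0.11, close to the size of the differences themselves.

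**Figure D2:**
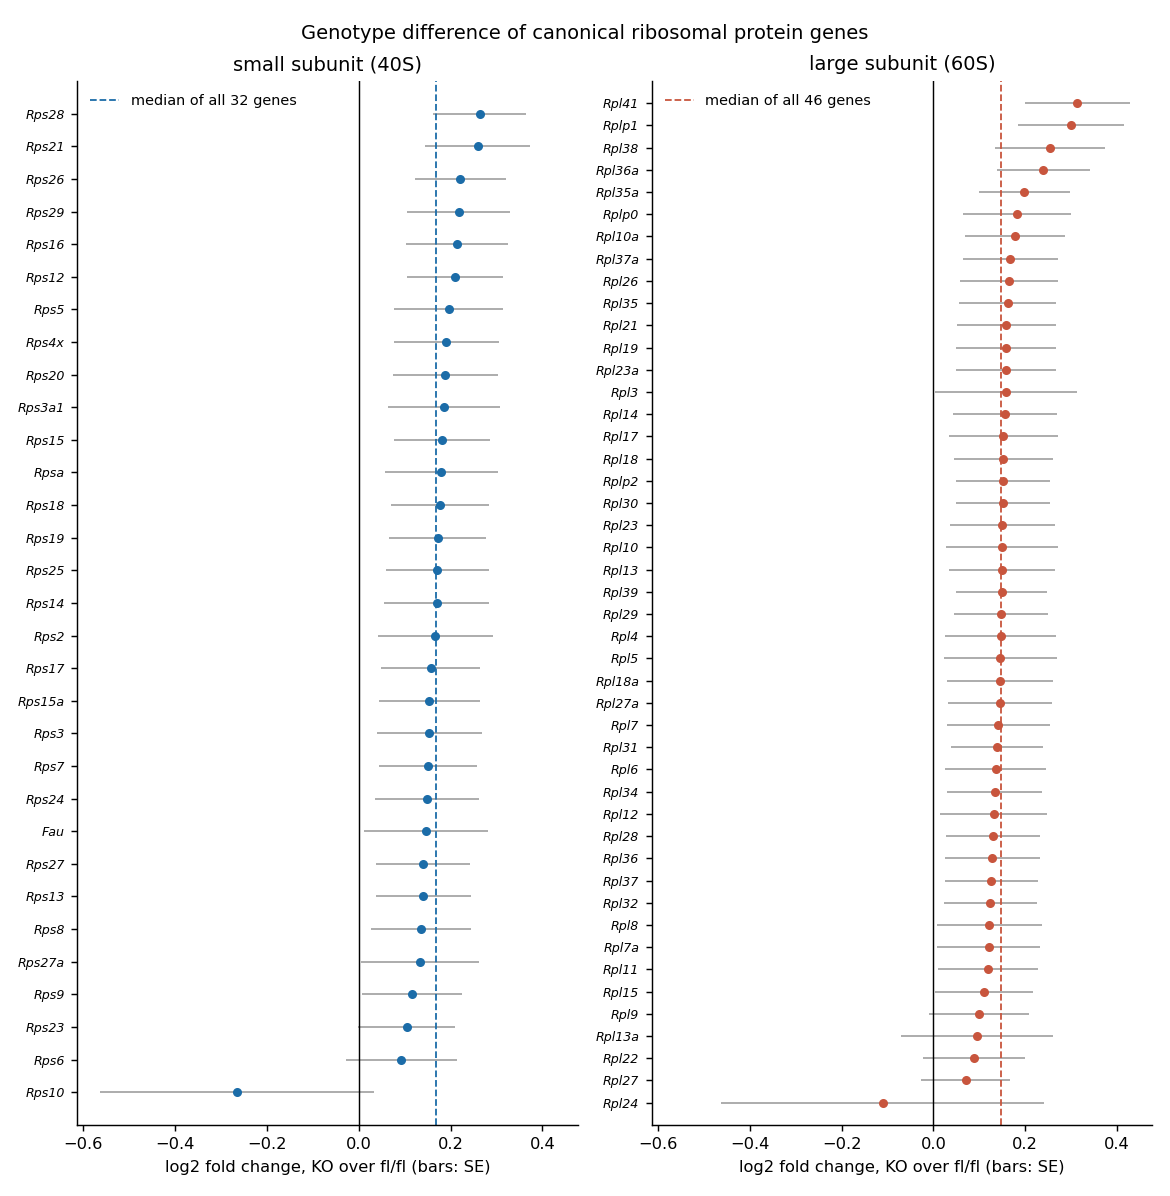
Log2 fold change of Hep-Sucnr1 KO over Sucnr1 fl/fl for 31 of the 32 small subunit (left) and the 46 large subunit (right) genes, with bars of 1 SE from the edgeR fit and a dashed line at the median of each whole subunit. All genes shown but Rps10 and Rpl24 lie to the right of 0, within a narrow band around 0.17 and 0.15.

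At an unadjusted p below 0.05, 4 members were higher in KO and 0 lower, beside 1.91% of all genes higher and 1.81% lower (3.73% in both directions). *Rpl41* had 148, 154 and 171 CPM in the fl/fl libraries and 195, 190 and 203 CPM in the KO libraries. All KO libraries lay above all fl/fl libraries, with a log2 fold change of 0.31 (SE 0.11, unadjusted p = 0.0291 by edgeR). *Rplp1* had 184, 184 and 207 CPM in fl/fl and 236, 242 and 229 CPM in KO, a log2 fold change of 0.30 (SE 0.12, unadjusted p = 0.037 by edgeR). The groups again did not overlap. *Rps28*, a small protein near the mRNA exit site, had 45.7, 44.2 and 49.9 CPM in fl/fl and 55.1, 54.7 and 57.9 CPM in KO, with 0.26 on the log2 scale (SE 0.10, unadjusted p = 0.0376 by edgeR). *Rps3a2*, an annotated processed pseudogene of the *Rps3a1* family, had 16.9, 15.8 and 19.1 CPM in fl/fl and 20.9, 20.4 and 21.7 CPM in KO, with 0.28 (SE 0.12, unadjusted p = 0.0499 by edgeR), and reads of its parent gene cannot be told apart from its own where the sequences are the same. *Rpl36a* followed with 52.2, 52.0 and 56.6 CPM in fl/fl and 65.9, 60.6 and 63.3 CPM in KO (log2 fold change 0.24, SE 0.10, unadjusted p = 0.0519 by edgeR). In each of these 5 genes fl/fl replicate 3 was the highest control. None had an adjusted p other than 0.998.

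For 59 of the 90 tested members (65.6%) the 3 KO libraries all lay above the 3 fl/fl libraries, where 6.54% of all genes did. The reverse held for 0 members and for 4.04% of all genes. The 59 genes share their libraries, so this is a count of genes and not of independent observations. With 3 libraries against 3 the exact two-sided permutation test cannot give a p below 0.1, and these 59 genes had that value.

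Both subunits lay on the same side. The 32 small subunit genes had a median log2 fold change of 0.17, with 31 higher in KO, and the 46 large subunit genes a median of 0.15, with 45 higher. Counts on large subunit genes were 1.42 to 1.46 times those on small subunit genes in every library. Among the small subunit genes, *Rpsa*, the laminin receptor precursor, had 375, 359 and 397 CPM in fl/fl and 441, 403 and 438 CPM in KO (log2 fold change 0.18). *Rps3*, a protein of the mRNA entry site that also takes part in DNA repair, had 182, 177 and 196 CPM against 214, 197 and 206 CPM (0.15), and *Rps19*, mutated in Diamond-Blackfan anaemia, 80.1, 80.5 and 88.3 CPM against 96.2, 89.5 and 94.8 CPM (0.17). In these 3 genes the groups did not overlap. In 3 others they did. *Rps6*, the substrate of the S6 kinases, had 247, 234 and 266 CPM against 266, 252 and 280 CPM (0.09). *Fau* had 146, 133 and 166 CPM against 167, 150 and 176 CPM (0.15), and *Rps27a*, made as a fusion with ubiquitin, 148, 133 and 155 CPM against 160, 144 and 174 CPM (0.13).

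Among the large subunit genes, *Rplp0*, the base of the stalk, had 321, 345 and 363 CPM in fl/fl and 389, 387 and 389 CPM in KO (0.18). *Rplp2*, the partner of *Rplp1* in the stalk, had 82.6, 79.3 and 87.1 CPM against 91.4, 90.3 and 95.1 CPM (0.15). *Rpl11*, which with *Rpl5* and the 5S RNA binds MDM2 when assembly fails, had 149, 141 and 156 CPM against 164, 161 and 158 CPM (0.12). These 3 genes had groups that did not overlap, while *Rpl5* with 237, 221 and 262 CPM against 265, 257 and 275 CPM (0.15) overlapped in fl/fl replicate 3. *Rpl13a*, known as part of the GAIT complex that silences inflammatory mRNAs, had 6.58, 7.01 and 8.47 CPM against 8.61, 7.65 and 7.29 CPM (0.10) with the shared exons given above. The abundant genes *Rps2*, *Rps3a1* and *Rpl4* had log2 fold changes of 0.17, 0.19 and 0.15, each with KO libraries above all fl/fl libraries.

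The extremes of the range were weakly expressed genes with wide errors. *Rps3a3*, an annotated pseudogene, was at 0.624, 0.662 and 0.593 CPM in fl/fl and 1.01, 0.650 and 1.15 CPM in KO (log2 fold change 0.58, SE 0.34). *Rps12l1* had 0.43 (SE 0.23) at 1.51 to 1.99 CPM against 2.22 to 2.56 CPM, and *Rps27rt* 0.38 (SE 0.26) at 1.25 to 2.11 CPM against 2.01 to 2.31 CPM. The lowest values belonged to *Rps10* (-0.26, SE 0.30), *Rps4l* (-0.16, SE 0.23) and *Rpl24* (-0.11, SE 0.35), the 3 members with a lower fitted level in KO, and next came *Rpl7l1* (0.01, SE 0.16), which acts in the making of ribosomes, and *Rps19bp1* (0.04, SE 0.19). All 5 had groups that overlapped. Each of the first 3 had a standard error larger than the difference.

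By the median over the family every KO library lay above every fl/fl library, with unequal gaps. For each gene the log2 CPM was set against its mean over the 6 libraries, and the median of this deviation over the 90 genes was -0.12 in fl/fl replicate 1 and -0.12 in replicate 2, but -0.01 in replicate 3. In KO it was 0.09, 0.04 and 0.11 for replicates 3, 4 and 5. Thus fl/fl replicate 3 lay nearer to KO replicate 4 than to the other controls: 70 of 90 genes were higher in KO replicate 4, by a median of 0.05, while the same library exceeded fl/fl replicate 2 by 0.16 and fl/fl replicate 1 by 0.16. Replicate 3 is also the only fl/fl library with an index of the second series.

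**Figure D3:**
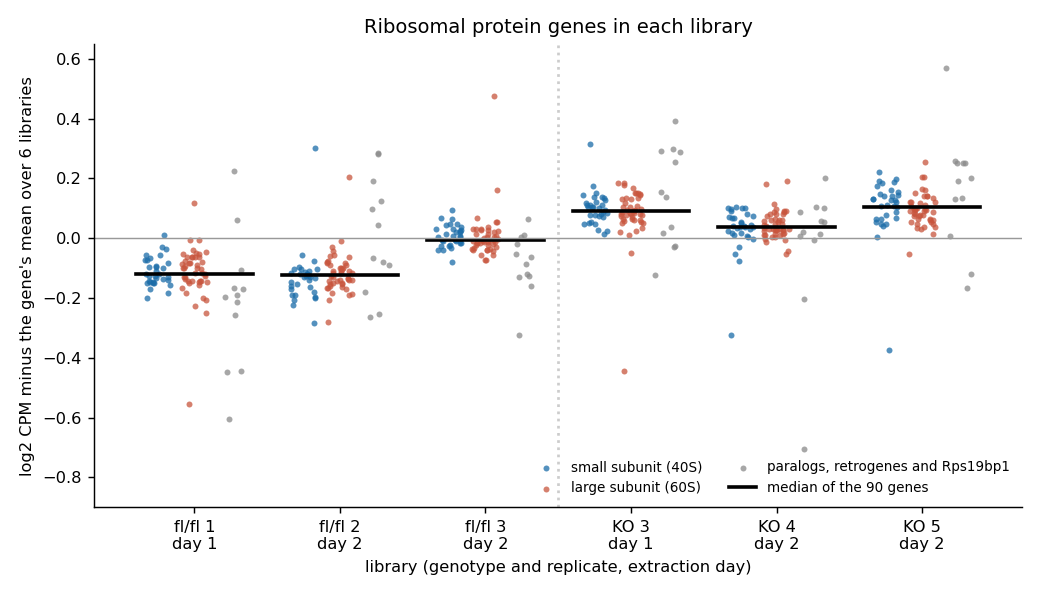
Deviation of log2 CPM from the mean over 6 libraries for each of the 90 tested members, by library, with small subunit genes in blue, large subunit genes in red, the others in grey and a black line at the median of the library. The medians are -0.12, -0.12 and -0.01 in fl/fl and 0.09, 0.04 and 0.11 in KO, so that fl/fl replicate 3 lies between the other controls and the KO libraries.

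The share of all counts, which uses no TMM scaling, was 1.11%, 1.20% and 1.15% in fl/fl and 1.31%, 1.23% and 1.24% in KO. The groups did not overlap here either, but the control nearest to KO was replicate 2 and not replicate 3. The means were 1.15% ± 0.0438 and 1.26% ± 0.0431 (SD, n = 3 each), a difference of 0.107 percentage points. Within day 1 the difference was 0.198 points between single libraries and within day 2 it was 0.0623 points. The 187 pseudogenes marked -ps, which are no members, held 0.0664% to 0.0899% of counts, with means of 0.0720% in fl/fl and 0.0850% in KO. In bulk RNA a larger share of the family and a smaller share of other transcripts cannot be told apart.

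The higher level in KO stayed in most members when 1 library was left out, and 84 of 90 were higher in all 6 such fits. The median log2 fold change ran from 0.12 without fl/fl replicate 2 to 0.20 without fl/fl replicate 3, and from the day 2 libraries alone it was 0.13. Without fl/fl replicate 1 or KO replicate 3, the day term takes up the 1 library left on day 1. Those fits (medians 0.14 and 0.13) therefore take the genotype difference from the day 2 libraries alone. They repeat that fit and are no separate checks. With the index series as a further term it was 0.07 with 83 of 90 higher, and 0 members had an unadjusted p below 0.05, beside 0.622% of all genes. The count of 4 members with an unadjusted p below 0.05 fell to 0 without fl/fl replicate 1, fl/fl replicate 2, KO replicate 3 or KO replicate 5 and to 2 without KO replicate 4. The count of members whose groups did not overlap was 60 to 76 when 1 library was left out, beside 9.07% to 12.6% of all genes. Leaving out a library can only keep or raise this count, so it is no check on the count from all libraries.

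The size of the difference went with mRNA length in the rest of the transcriptome. The 84 tested members with an annotated mRNA had a median length of 680.5 bases, and 66 of them were no longer than 1000 bases. Other genes of like level here are the 1859 of at least 63.9 CPM, the 10th percentile of the canonical genes, with no upper bound. The members were not held to this bound. Among these other genes, the 154 with an mRNA of up to 1000 bases had a median log2 fold change of 0.14 and 81.2% were higher in KO. The 935 with 1000 to 3000 bases had 0.04, and the 721 longer ones -0.08 with 27.2% higher. Of the short genes 20.1% had groups that did not overlap in the direction of KO, of the long ones 1.66%. When a cubic trend of the fold change on mRNA length, fitted over 12661 genes outside the family, was subtracted, the median of the 84 members went from 0.15 to 0.00 and 45 of them lay above the trend. With level added to the trend the median was -0.01 and 38 of 84 lay above it. Against these trends over all genes the members thus lay on both sides. RNA quality values are not given in the sources used here, and the cause of the trend on length was not tested.

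**Figure D4:**
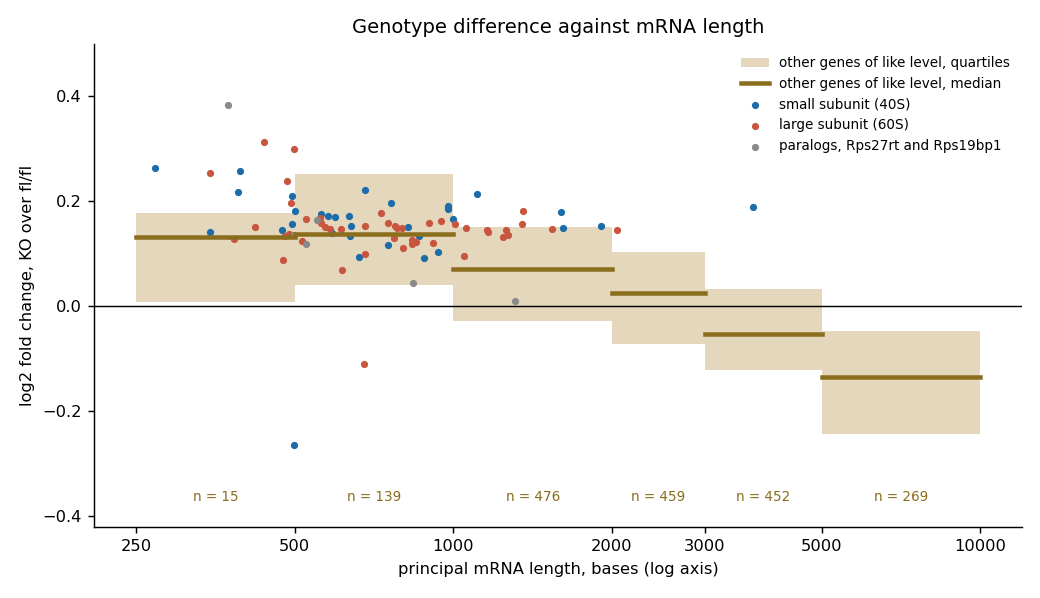
Log2 fold change of Hep-Sucnr1 KO over Sucnr1 fl/fl against principal mRNA length (log axis). Points are 84 members, brown lines and bands are the median and quartiles of other genes of at least 63.9 CPM in 6 length classes with the number of genes under each, and the outer classes are open-ended. The medians of the other genes fall from 0.13 and 0.14 in the shortest classes to -0.13 in the longest, and most members lie within the band of the short genes.

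Set beside the other genes of like level, the members had the higher median in each class of length that held more than 1 of them. The 16 members of 1000 to 2000 bases had a median of 0.15, where 476 other genes had 0.07 with quartiles of -0.03 and 0.15. The 21 members of up to 500 bases had 0.18, beside 0.13 in only 15 other genes. The 45 of 500 to 1000 bases had 0.15, beside 0.14 in 139 other genes. In these classes, from the shortest up, groups that did not overlap in the direction of KO were found in 61.9%, 73.3% and 62.5% of members. Of the other genes this held for 26.7%, 19.4% and 10.7%. The members also varied less between libraries, with a median SD of log2 CPM of 0.11 against 0.18 in the other genes of like level. The part of this in these shares was not tested. The genes with the smallest p, *Rpl41* at 437 bases, *Rplp1* at 499 and *Rps28* at 271, are among the shortest of the family. By the TOP motif the canonical genes did not divide: the 35 with the motif within 10 bases of the start had a median of 0.15 and the 23 without it 0.15.

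The family varied less between libraries than other genes. The SD of log2 CPM over the 6 libraries had a median of 0.11 in the 90 tested members, 0.25 in all genes tested and 0.18 in the 1859 other genes of like level, and 78 members lay below that last value. The coefficient of variation of CPM ran from 3.38% in *Rpl27* to 30.4% in *Rps3a3*. *Rpl15* was also among the most even genes (4.73%).

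Other genes of the translation machinery are set beside the family. *Rack1* had 242, 241 and 257 CPM in fl/fl and 266, 260 and 270 CPM in KO (log2 fold change 0.10). The 10 elongation factors had a median of 0.04 with 7 higher in KO, and the 29 initiation factors 0.05 with 20 higher. Of 16 other genes known for TOP mRNAs 9 were higher, with a median of 0.03. The 48 ribosome assembly factors were split evenly, 24 higher and 24 lower, with a median of 0.00, and of 17 genes of RNA polymerase I and its factors 8 were higher (0.00). No gene of these lists had an unadjusted p below 0.05, where 3.73% of all genes did. The smallest p of each list belonged to *Eef1d*, a subunit of the exchange factor of elongation factor 1 (0.21, unadjusted p = 0.109 by edgeR), *Eif3i* of initiation factor 3 (0.18, 0.127), the prefoldin gene *Pfdn5* (0.19, 0.12), *Gnl3l*, a nucleolar GTPase (-0.22, 0.11), and *Znrd1*, a subunit of RNA polymerase I (0.18, 0.355). The mRNAs of these lists and of the regulators given next are longer than those of the family, with medians from 1491.5 to 4406 bases. With the trend on length subtracted, the medians of these 8 lists lay between -0.04 and 0.04, where that of the family was 0.00. Of the 16 other TOP mRNA genes only 10 had an annotated mRNA length and entered here. The median of these 10 was 0.07 before and -0.04 after the trend was subtracted.

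**Figure D5:**
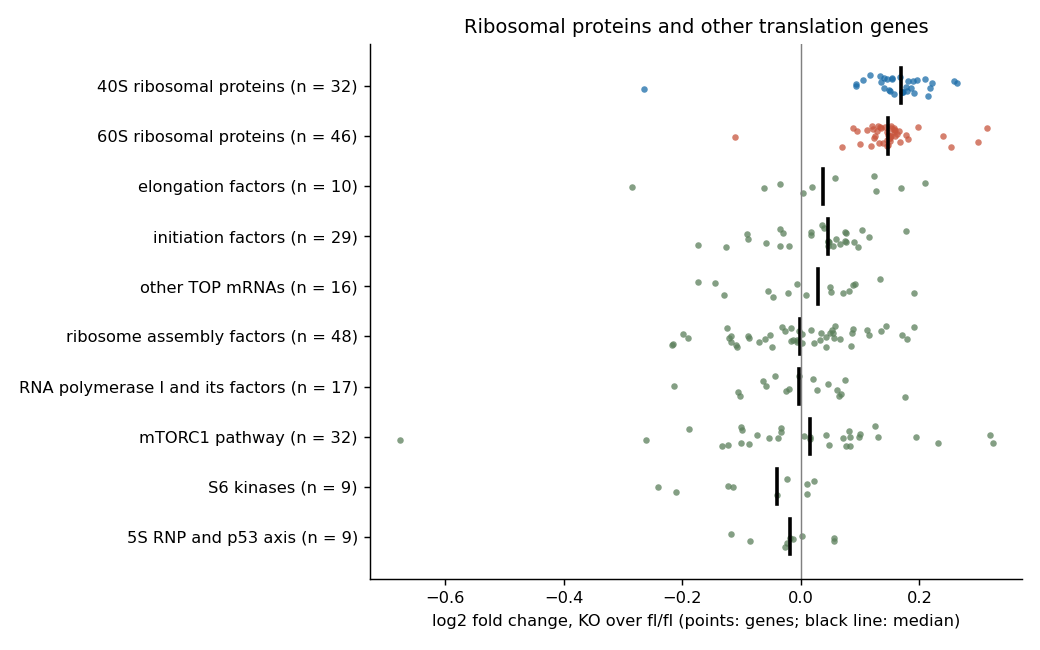
Log2 fold change of Hep-Sucnr1 KO over Sucnr1 fl/fl for the ribosomal proteins of each subunit and for 8 lists of other translation genes, with a point for each gene and a black line at the median of the list. The medians are 0.17 and 0.15 for the subunits and lie between -0.04 and 0.05 for the other lists, whose mRNAs are longer, with no trend on length subtracted.

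Regulators of the family are given in the same way. Of 32 mTORC1 pathway genes 18 were higher in KO with a median of 0.02, of 9 S6 kinase genes 3 (-0.04), and of 9 genes of the 5S particle and p53 axis 3 (-0.02). *Castor2*, a cytosolic arginine sensor family member, had the smallest p of the first list, with 1.35, 2.38 and 1.42 CPM in fl/fl and 0.950, 1.03 and 1.21 CPM in KO (-0.68, SE 0.29, unadjusted p = 0.0563 by edgeR). *Rps6ka1* (-0.21, unadjusted p = 0.277 by edgeR) and *Nop53* (-0.12, unadjusted p = 0.264 by edgeR) had the smallest of the other lists.

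Extraction day, another known difference among the libraries, gave a median difference in the family like that of all genes. Between day 2 and day 1, 57 of 90 members were higher on day 2 with a median log2 difference of 0.02, and over all genes 53.3% were higher with a median of 0.02. With the trend of the day difference on mRNA length subtracted the median of 84 members was -0.16 with 4 above the trend, and with length and level subtracted it was -0.03 with 24 above. No member had an unadjusted p below 0.05 for the day by edgeR or by DESeq2, where 7.49% and 6.99% of all genes did, and by edgeR 0 of all genes (0.0%) had an adjusted p below 0.05, against 225 (1.49%) by DESeq2. Groups that did not overlap by day were found for 3 members in the direction of day 2 and for 1 in that of day 1, beside 8.51% and 6.29% of all genes. The largest differences by day belonged to *Rpl24* (0.87, unadjusted p = 0.0619 by edgeR), *Rpl37rt* (0.36) and *Rpl36al* (0.28) on one side and to *Rps4l* (-0.35), *Rps10* (-0.26) and *Rpl6l* (-0.11) on the other, all but *Rpl6l* and *Rps4l* at under 5 CPM. The genotype difference itself was tested for a change between days, and 0 of 90 members had an unadjusted p below 0.05 for the interaction by edgeR, beside 3.69% of all genes.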

How the data were processed

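RNA-seq of cultured hepatocytes from 3 Hep-*Sucnr1* KO mice and 3 floxed controls was analysed from the deposited table of raw read pair counts per Ensembl gene. The authors trimmed reads with Trim Galore 0.6.7, aligned them to GRCm38 with STAR 2.7.10a and Ensembl release 102 annotation, and counted stranded read pairs with featureCounts of Rsubread. How pairs matching several genes were handled is not given in the sources used here.

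From these counts, genes with a mean normalized count above 5, 15105 in number, were tested with edgeR 4.0.16 (R 4.3.3): TMM factors, quasi-likelihood F test of genotype with extraction day as covariate, Benjamini-Hochberg adjustment, threshold 0.05. DESeq2 1.42.0 was an alternative. The scripts were tested on simulated counts with changes larger than the genotype differences of the family. The simulation held no effect of day, index series or mRNA length. CPM used TMM-scaled totals, and log2 CPM a prior count of 2. Lengths and overlaps came from GENCODE M21 (GRCm38), near-identical copies from BLAST 2.17.0, and start sequences from RefSeq, where 68 of 93 members matched by symbol. Identity between paralogs is over aligned coding bases, in place of the protein alignment planned. Replicates are single mice, and counting error at these depths is small beside their spread, except in the genes of few counts. Alternatives were other scalings, filters and covariates and leaving out each library.

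The members, the gene lists and the trend on length were chosen with earlier results of these data known. Named genes are those with set roles, the paralog pairs, the extremes of level, of genotype and day difference and of p, and the smallest p of each other list. Genes named for evenness of level, *Rps20*, *Rpl21*, *Rpl15* for its copies, and *Rps29* were chosen after their values were seen. *Npm1*, *Eif4a2* and *Rrs1* stand in 2 lists each. A few genes are counted in their groups but their own values are not reported here.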

Additional observations from a re-analysis of the deposited data

How the results depend on the processing

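No paired analysis was possible because the replicate labels of the genotypes share fewer than 2 numbers. No alternative gave a member an adjusted p below 0.05. DESeq2 called 7 genes for genotype and 225 for day, the fit without a filter 122 for day, and the fits without 1 library 0 for genotype and 0 to 29 for day. The median log2 fold change of the members, 0.15, was 0.073 with the index series term, 0.0046 with the length trend removed, and -0.0079 with length and level removed, and 0.12 to 0.20 with 1 library left out. For day the median, 0.015, was -0.16 with the length trend removed and -0.027 with length and level removed. The 2 trends were added after the data were seen. The count of members with an unadjusted p below 0.05 was 4 in the report. It was 2 with DESeq2, 2 with library size alone, 1 without a filter and 7 without the day term. In day 2 alone it was 0, and with 1 library left out 0 to 5. Where fewer libraries entered, an arm of 1 library on a day was assumed to vary like the others. The fits without fl/fl replicate 1 or KO replicate 3 take the genotype difference from day 2 alone and are no separate checks. With the index series term, fl/fl replicate 3 is the only control behind the genotype difference. Coding length and mRNA length each kept 2 of the 5 genes that were highest per kb of exon. Of the named genes, *Rpl7l1* turned to -0.012 with DESeq2, and with 1 library left out *Rpl7l1* ran from -0.17 to 0.18, *Rpl13a* from -0.059 to 0.22, *Rps4l* from -0.39 to 0.080, *Rpl24* from -0.22 to 0.018 and *Rps19bp1* from -0.061 to 0.21. The cause of these changes was not tested. Over all alternatives, 80 of 101 summary values stayed within 1.5 times the value reported or within the spread between libraries. Part of these 80 are counts of 0 called genes that stayed at 0, or come from fits that nearly repeat one another. Others are counts of members with groups that did not overlap, which cannot fall when a library is left out. The genotype median with the index term and with each trend is among the 21 that moved. With DESeq2 or 1 library left out 324 of 336 fold changes of named genes kept their direction.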

Other observations

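Other gene families were looked at after the values of the ribosomal proteins had been seen, so their counts are a description. The 81 tested mitochondrial ribosomal proteins, which build the separate ribosome of mitochondria, had a median log2 fold change of 0.09 for the genotype, with 72 higher in KO and 4 at an unadjusted p below 0.05 by edgeR. The 83 nuclear-encoded subunits of the respiratory chain and ATP synthase had 0.14, with 80 higher and 1 at an unadjusted p below 0.05. The 38 proteasome subunits, which degrade ubiquitin-tagged proteins, had 0.22, with 38 of 38 higher and 7 at an unadjusted p below 0.05, beside 3.73% of all genes. With length and level removed by the same trend, the medians were 0.05 for 77 mitochondrial ribosomal proteins, 0.00 for 81 respiratory chain subunits and 0.14 for the 38 proteasome subunits, of which 37 stayed above the trend. The mRNAs of the proteasome subunits have a median length of 1526.5 bases, against 680.5 for the cytosolic ribosomal proteins. No gene of these families had an adjusted p below 0.05 by edgeR, and the cause of the differences was not tested.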
